A study of Mus musculus with 160 samples.

Results

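Of 78 single stromal cells sorted from the bone marrow of old mice, 58 listed at least 600 named genes at 1 FPKM or more (a fragment level corrected for transcript length and for the sequencing yield of each cell), and 44 of these 58 also listed Aldh1a2 at 1 FPKM or more. The other 14 did not. The members were chosen by the Aldh1a2 value alone after the gene minimum: 44 cells with Aldh1a2 and 14 cells without it, out of 160 cells in the series. Both sides are cells of the same old sample, because the labels name no animal, so all differences between them are descriptions without a test, and exact intervals cover counting error only. The other age, used for comparison, was treated in the same way and gave 15 young cells with Aldh1a2 and 52 without, out of 82.

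All cells came from the C57BL/6J strain with no transgene, deletion or treatment named in the labels. Old mice were 24 months of age in the series design (2 years in the protocol) and young mice 9 weeks (10 weeks in the protocol). The sort took cells that lacked CD45, Ter119 and CD31 and carried LepR and CD140a, a gate for marrow mesenchymal stem cells. Each cell was captured in its own chamber of a Fluidigm C1 chip, amplified and sequenced, and the number of mice and their sex are not given in the labels.

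Aldh1a2 encodes retinaldehyde dehydrogenase, also called Raldh2, the enzyme that oxidises retinal to retinoic acid. Retinoic acid binds the nuclear receptors Rara, Rarb and Rarg, which pair with Rxr receptors and switch target genes on or off, and Cyp26 enzymes break it down. In the embryo Aldh1a2 makes most of the retinoic acid of the trunk mesoderm, and in adult tissues it is known from mesothelium and from some stromal and dendritic cells. Leptin receptor stroma of the marrow supplies blood stem cells with Cxcl12 and stem cell factor, the product of Kitl, and can form fat and bone.

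The promoters of Aldh1a2, whose RNA chose the sides, and of Ecm1, the gene with the highest difference between them, are shown as RefSeq gives them for build GRCm38.p6, from 250 bases before to 50 bases after the gene's start. They lie at chr9:71215539-71215838 on the plus strand and at chr3:95739520-95739819 on the minus strand. The FPKM were made on another build, mm9, so these coordinates belong to the RefSeq windows only. Capitals mark matches to 3 motifs searched on both strands.
Aldh1a2: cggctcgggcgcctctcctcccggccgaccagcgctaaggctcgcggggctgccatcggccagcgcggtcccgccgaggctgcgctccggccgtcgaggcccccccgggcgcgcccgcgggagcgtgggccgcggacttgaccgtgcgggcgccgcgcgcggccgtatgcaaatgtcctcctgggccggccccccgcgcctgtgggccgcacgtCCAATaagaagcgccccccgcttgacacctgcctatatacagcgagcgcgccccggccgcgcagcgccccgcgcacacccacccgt
Ecm1: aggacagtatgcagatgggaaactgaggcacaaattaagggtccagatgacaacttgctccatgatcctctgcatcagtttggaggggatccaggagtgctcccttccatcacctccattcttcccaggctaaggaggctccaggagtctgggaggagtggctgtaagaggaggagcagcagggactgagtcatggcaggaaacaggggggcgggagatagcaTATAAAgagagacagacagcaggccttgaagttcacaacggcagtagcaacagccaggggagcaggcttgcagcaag
The Aldh1a2 window held CCAAT, which 37.4% of 32851 promoter windows held, and the Ecm1 window held TATAAA, held by 13.6%. AGGTCA, the core of retinoid receptor sites, was in neither window and in 16.3% of all windows. These are matches of letters and say nothing of binding.

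Aldh1a2 separated into cells with clear values and cells at or near 0. In the 44 cells with it the lowest value was 2.66 FPKM, the median 38.7 and the highest 266 FPKM, with 7 cells below 10 FPKM and 7 at 100 or more. Of the 14 cells without it, 8 were at exactly 0 and 6 lay above 0, the highest at 0.150 FPKM. The values just inside and just outside the threshold were thus 2.66 and 0.150 FPKM, with no kept old cell in between. At the gene minimum, the last cell inside listed 622 genes and the first outside 553. The share of kept old cells with Aldh1a2 was 75.9% (exact 95% interval 62.8 to 86.1), against 20.0% (5.73 to 43.7) of the 20 old cells under the gene minimum. In young cells it was 22.4% (13.1 to 34.2), with a median of 9.82 and a highest value of 98.6 FPKM in the 15 listed cells. None of the 15 young cells under the minimum listed it, which their number limits only to 21.8% (upper exact bound).

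Cells with Aldh1a2 also listed more genes of all kinds. Their number of listed named genes ran from 637 to 2779 with a median of 1361 and quartiles of 1177 and 1494. Cells without it ran from 622 to 1529, with a median of 1080 and quartiles of 762 and 1274. The 2 sides overlapped over most of this range but were unevenly spread: at or above the median of all kept old cells, 1312 genes, stood 27 cells with Aldh1a2 and 2 without, and below it 17 with and 12 without. The share of FPKM on rows without a gene name had medians of 43.4% with and 48.4% without Aldh1a2. Read depth per cell is unknown, since FPKM carry no counts, and an FPKM of 0 can be a failed estimate. Differences are therefore given as deposited and, for the genes described most fully, also adjusted for the number of listed genes by a linear fit per gene with its log2 as covariate. The part of the gene number in the differences beyond this fit was not tested.

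**Figure D1:**
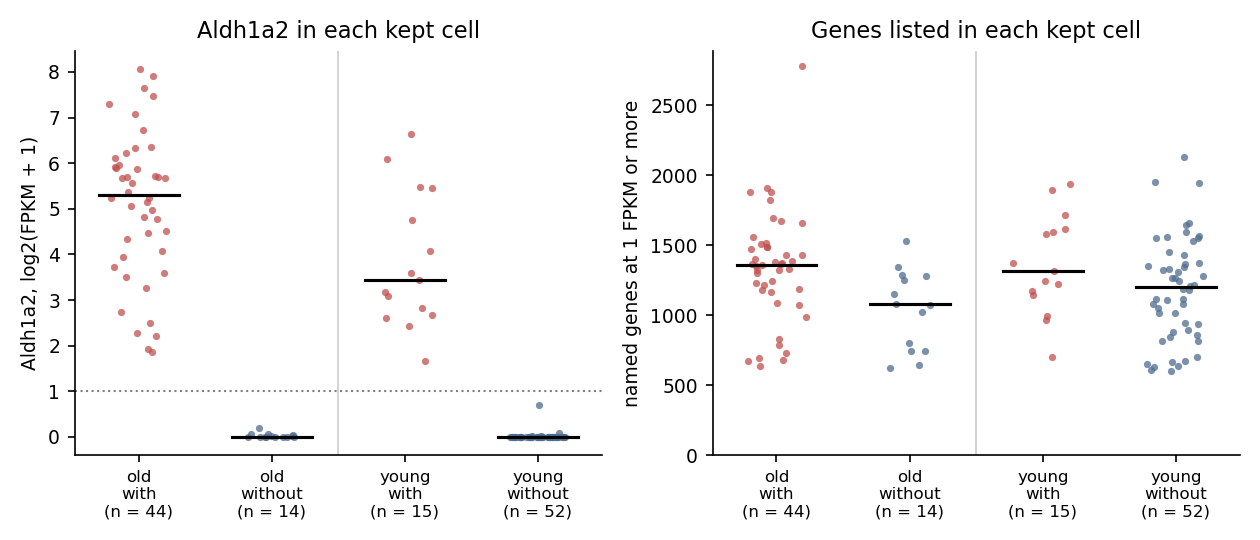
Each point is a kept cell, in order old with, old without, young with and young without Aldh1a2, with a bar at the median: the left panel gives Aldh1a2 as log2(FPKM + 1) with a dotted line at the threshold of 1 FPKM, the right panel the number of named genes at 1 FPKM or more. Old cells with Aldh1a2 start at 2.66 FPKM and have a median of 1361 listed genes, against 1080 in old cells without it.

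Both sides carried the RNA of the gate and of marrow stroma. Lepr was listed in 43 of 44 cells with and 12 of 14 cells without Aldh1a2, Pdgfra (CD140a) in 22 and 6, Cxcl12 in 44 and 13, Kitl in 40 and 13, and Adipoq, the adipocyte hormone adiponectin, in 43 and 12. Ptprc (CD45) and Pecam1 (CD31) were listed in 0 cells of either side. Mesothelial cells are adult cells well known for Aldh1a2, and their 7 markers in the table, Msln, Upk3b, Wt1, Lrrn4 and 3 keratins, were in 0 of 44 and 0 of 14 cells. The 9 endothelial, 4 megakaryocyte and 3 erythroid markers present in the table were also in 0 cells of both sides. A hematopoietic marker was listed in 7 of 44 cells with and 1 of 14 without Aldh1a2, mostly Fcer1g (6 and 1 cells). No cell had 3 such markers. S100b and Ncam1, which Schwann cells and other cells use, were listed in 19 and 16 cells with and in 5 and 1 cells without Aldh1a2, whereas Sox10, a defining Schwann gene, was in 0 cells. Cells with at least 1 of 8 pericyte and smooth muscle markers numbered 1 on each side, and those with at least 1 of 7 chondrogenic markers 5 with and 2 without Aldh1a2. Of 8 genes of dividing cells 1, Birc5, was listed, in 3 of 44 cells with and 2 of 14 without Aldh1a2, while Mki67, Top2a and the other 5 were in 0 cells. The part of S100b, Ncam1 and the hematopoietic markers in the differences that follow was not tested.

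Over the 1823 named genes listed in at least 20% of kept old cells, most stood higher in cells with Aldh1a2. The difference of mean log2(FPKM + 1), with minus without, was above 0 for 66.4% of genes and had a median of 0.28. It was at least 1 for 269 genes (14.8%) and at most -1 for 62 genes (3.40%). By share of cells, 189 genes (10.4%) were listed more often by at least 25 percentage points in cells with Aldh1a2 and 25 genes (1.37%) were lower by as much. The filter counts both sides together: a gene listed only in cells without Aldh1a2 would need 12 of those 14 cells to pass, so the filter favours genes high in the larger side. After adjustment for listed genes the excess was gone: 132 genes (7.24%) were higher and 154 (8.45%) lower by 1, with a median of -0.01. The number of listed genes counts these same genes among others, so the fit is bound to take out much of an excess they share. Where the excess comes from was not tested, and single genes are read against this excess.

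Ecm1, a secreted glycoprotein of the extracellular matrix, had the highest difference of all 1823 genes. In the 44 cells with Aldh1a2 it ran from 0 to 1436 FPKM with a median of 46.95, and in the 14 cells without it from 0 to 6.53 FPKM with a median of 0.00825. It was listed in 32 cells with (72.7%, exact 95% interval 57.2 to 85.0) and 2 cells without Aldh1a2 (14.3%, 1.78 to 42.8). The upper ends did not overlap: 17 cells with Aldh1a2 held Ecm1 at 100 FPKM or more, and 0 cells without it. The lower ends did, since 12 cells with Aldh1a2 did not list Ecm1. Cell by cell, both genes were listed in 32 old cells, Aldh1a2 alone in 12, Ecm1 alone in 2 and neither in 12. Mean log2(FPKM + 1) was 4.82 with and 0.43 without Aldh1a2, a difference of 4.39, or 3.96 adjusted for listed genes. Cells with both genes listed a median of 1367 genes and cells with Aldh1a2 alone 1343.

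Within the 44 cells, the level of Aldh1a2 did not order the level of Ecm1. Split at the median Aldh1a2 value, a split chosen after the values were seen, the 22 upper cells listed Ecm1 in 14 cases (63.6%, median 25.2 FPKM) and the 22 lower cells in 18 (81.8%, median 77.7 FPKM). Spearman's rho between both genes over the 44 cells, which share chip and sample, was -0.20 and is given as a description. In the 20 old cells under the gene minimum Ecm1 was listed in 0 of 4 cells with and 2 of 16 without Aldh1a2. In young cells, which had no part in choosing Ecm1, it was listed in 9 of 15 cells with (60%, 32.3 to 83.7) and 22 of 52 cells without Aldh1a2 (42.3%, 28.7 to 56.8). The highest young values were 237 FPKM with and 269 FPKM without, so the sides overlapped fully, and the difference was 0.61, or 0.23 adjusted. Whether the ages differ in this was not tested. With Aldh1a2 cut at 10 FPKM in place of 1, Ecm1 was listed in 70.3% of 37 and 38.1% of 21 old cells, and its difference of 1.84 ranked 23rd. Cut above 0 FPKM, it was listed in 64.0% of 50 and 25.0% of 8 old cells, and its difference of 3.49 ranked 7th. Taking all old cells, its difference of 3.61 ranked 2nd.

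**Figure D2:**
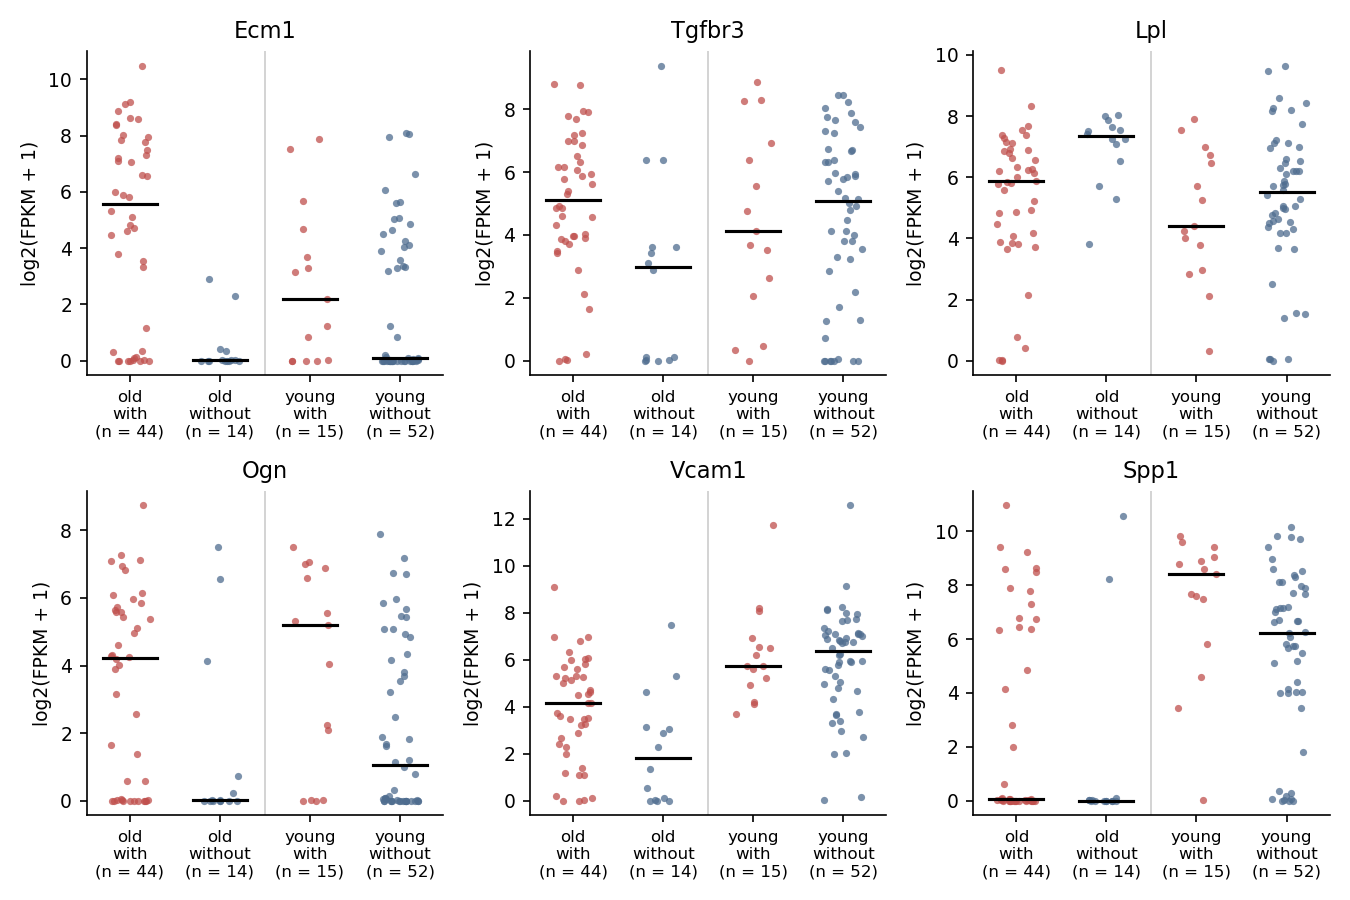
Levels of Ecm1, Tgfbr3, Lpl, Ogn, Vcam1 and Spp1 in each kept cell as log2(FPKM + 1), for old cells with and without and young cells with and without Aldh1a2, with a bar at the median. Ecm1 reaches 100 FPKM or more in 17 old cells with and 0 old cells without Aldh1a2, whereas 2 young cells with and 3 without reach it.

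Tgfbr3, the TGF-beta co-receptor betaglycan, was also among the 12 highest. It was listed in 40 of 44 cells with (90.9%, 78.3 to 97.5; quartiles 13.4 and 96.6 FPKM, median 33.9) and in 8 of 14 cells without Aldh1a2 (57.1%, 28.9 to 82.3; quartiles 0.0401 and 11.4 FPKM, median 6.98). The sides overlapped at both ends, with highest values of 444 and 670 FPKM. Its difference was 2.17, or 1.54 adjusted. In young cells it was listed in 80% with and 82.7% without Aldh1a2, a difference of -0.14.

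A further 9 of the 12 highest genes have varied roles. They were picked for their difference, skipping ribosomal protein genes and genes carried by 1 cell, so their sizes are descriptions. Atp5h, a subunit of the mitochondrial ATP synthase, was listed in 59.1% of cells with and 14.3% without Aldh1a2, with a difference of 2.65, or 1.94 adjusted. Ndufb10, a subunit of respiratory complex I, was listed in 18 of 44 cells and in 0 of 14 (exact upper bound 23.2%), a difference of 2.48, or 1.74 adjusted. Dbi, the acyl-CoA binding protein, had 19 and 0 cells, and Pomp, which assembles proteasomes, 17 and 0. These 3 genes passed the filter only through the 44 cells with Aldh1a2, where they are high, so a difference was bound to follow. The limit holds for other genes of the 12 highest too. Ecm1, Atp5h and Psmb1 were listed in 2 cells without Aldh1a2 and Sec11a and Crip1 in 1, so they also needed the cells with it to pass. Nop10 and Lamp2, with 3 such cells each, and Tgfbr3, with 8, needed them too. Psmb1, a subunit of the proteasome core, was listed in 52.3% and 14.3%. Sec11a, which cleaves signal peptides in the endoplasmic reticulum, was listed in 43.2% and 7.14%. Lamp2, a lysosomal membrane protein, was listed in 61.4% and 21.4%, and its difference of 2.19 was 1.63 after adjustment. Nop10, of the particles that modify ribosomal RNA, was listed in 63.6% and 21.4%, and the LIM domain protein gene Crip1 in 50% and 7.14%. How reads shared with near-identical copies were divided is not given, so the ribosomal protein genes are uncertain. Adjusted differences of these 9 genes ran from 1.26 for Nop10 to 2.12 for Dbi. Split by Aldh1a2 level as above, Dbi was listed in 6 of the 22 upper and 13 of the 22 lower cells, Atp5h in 13 and 13, and Tgfbr3 in 21 and 19.

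Fewer genes stood lower in cells with Aldh1a2, and the 12 lowest included the lipid enzyme of the stroma, Lpl. Lpl encodes lipoprotein lipase, which frees fatty acids from lipoproteins and is abundant in these adipocyte-primed cells. It ran from 0 to 719 FPKM (median 57.3) in cells with and from 13.2 to 264 FPKM (median 161) in cells without Aldh1a2. All 14 cells without Aldh1a2 listed it, and 39 of 44 with. The difference was -1.68, or -1.74 adjusted, and in young cells -0.51 (medians 20.1 with and 44.8 FPKM without). Of 6 compared fat genes 1 was higher and 1 lower by 1, with a median of 0.52. Agt, angiotensinogen, was the higher one with 1.11, or 0.32 adjusted, and Adipoq differed by 0.49. Taken within cells below and above the median gene number and averaged, their signs turned: Agt was at -0.61, Adipoq at -0.44 and the list median at -0.32, while Lpl was at -1.61. Only 2 cells without Aldh1a2 stood at or above that median, and they weighed as much in the average as the 12 below it.

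Ndufb9, another complex I subunit, had the lowest difference of the 12, -2.60 (-2.77 adjusted), and was listed in 20.5% of cells with and 57.1% without Aldh1a2, the opposite of Ndufb10. Ppm1a, a protein phosphatase, was listed in 20.5% and 64.3% with medians of 0 and 14.1 FPKM. The RNA-binding proteins Rbm39, a splicing factor, and Qk (quaking) were listed in 72.7% and 92.9%, and in 29.5% and 71.4%. Rbm39 medians were 9.66 FPKM with and 53.2 FPKM without Aldh1a2. Others act on membranes: Vapa, a tether of the endoplasmic reticulum, was listed in 40.9% and 71.4%, Rab21, an endosomal GTPase, in 11.4% and 50%, and Anxa1, annexin A1, in 56.8% and 71.4%. Anxa1 medians were 7.31 and 64.0 FPKM, but its difference of -1.87 was -0.03 when taken within cells below and above the median gene number and averaged. In that average the cells without Aldh1a2 at or above the median were only 2, with Anxa1 at 0.0232 and 0 FPKM. Psmb9, a subunit of the interferon-inducible proteasome, was listed in 15.9% and 42.9%. Psmb1, a core subunit that the standard and the inducible proteasome share, had gone the other way. The rest were Med28 of the Mediator complex (11.4% and 50%), D14Abb1e (22.7% and 57.1%) and Tomm5 of the mitochondrial import pore (15.9% and 35.7%). For 11 of the 12 genes both sides had cells at 0, so the sides overlapped, and for Lpl the range of the cells without Aldh1a2 lay inside that of the cells with it.

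**Figure D3:**
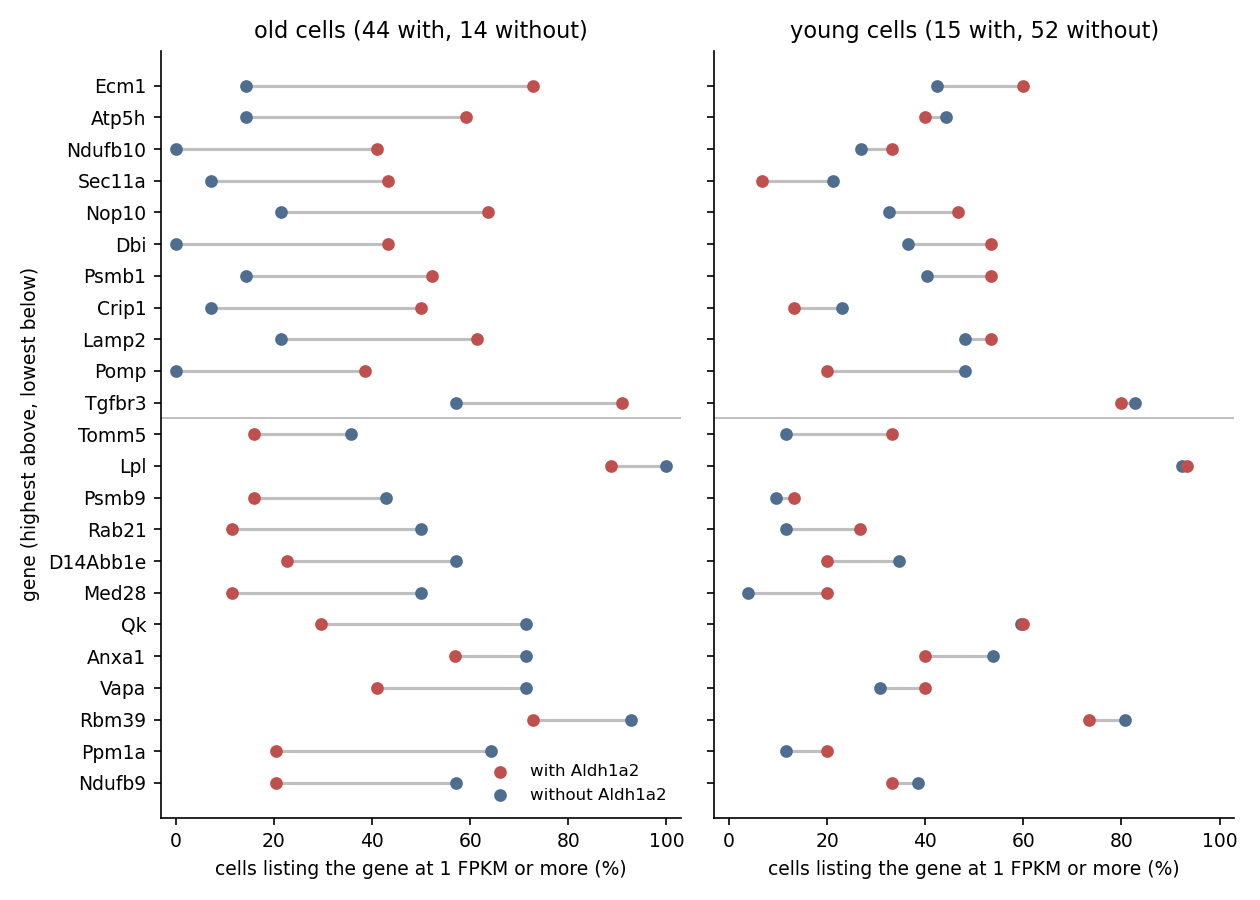
Share of cells listing each gene at 1 FPKM or more, in percent, for 11 of the 12 genes with the highest and the 12 with the lowest difference in old cells, with and without Aldh1a2, in old cells (left) and young cells (right). The old gaps, such as 72.7% against 14.3% for Ecm1, were used to pick the genes, while the young values, such as 60% against 42.3%, were not.

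The retinoic acid pathway around Aldh1a2 was sparsely listed on both sides. Of 22 genes for retinol uptake and for making retinal and retinoic acid, 21 were in the table and 2 reached 20% of cells. Adh1, an alcohol dehydrogenase that can oxidise retinol, was listed in 11 of 44 cells with (25.0%) and 1 of 14 without Aldh1a2 (7.14%), a difference of 1.36, or 0.62 adjusted. It passed the filter mostly through its 11 cells with Aldh1a2. Dhrs3, which turns retinal back into retinol and is itself induced by retinoic acid, was listed in 36.4% and 35.7%, a difference of 0.46. Among the genes not compared, Aldh1a1 was listed in 0 cells and Aldh1a3 in 1 with and 0 without, so the other retinal-oxidising members of the family were nearly unlisted. Rdh10, which oxidises retinol, was listed in 0 cells with and 1 without, and Stra6 and Lrat in 0 and 0.

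Of 20 receptors, cofactors and breakdown enzymes, 4 were compared, and 1 of them passed 1. Ncor1, a corepressor of the receptors, was lower: it was listed in 40.9% of cells with and 64.3% without Aldh1a2, a difference of -1.47, or -1.66 adjusted, with 52.4% of its summed FPKM in 1 cell. The coactivators Ncoa1 and Ncoa3 differed by 0.70 and -0.68. The receptor gene Rarg was listed in 9 of 44 cells and 3 of 14 cells, 20.5% and 21.4%. Rara was listed in 5 cells with and 0 without, Rarb in 1 and 0, and Rxra in 2 and 0. The breakdown enzymes Cyp26a1, Cyp26b1 and Cyp26c1, which retinoic acid commonly induces, were in 0 cells of either side, as was the carrier Crabp1. The exact upper bound for 0 of 44 cells is 8.04% and for 0 of 14 cells 23.2%.

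Of 21 genes known to be induced by retinoic acid, 3 were compared. Rai14 was listed in 75% of cells with and 57.1% without Aldh1a2 and differed by 1.13, with 93.5% of its summed FPKM in 1 cell. Rarres2, which encodes the chemoattractant chemerin, was listed in 65.9% and 64.3% and differed by -0.80, or -2.46 adjusted. Its medians were 41.9 FPKM with and 232 FPKM without Aldh1a2. The third was Dhrs3. Not reaching the 20% needed, Hoxa5 was listed in 8 of 44 cells with and 0 of 14 without, Tgm2 in 5 and 4, and Nrip1 in 6 and 1. The targets were thus found with both signs, and 3 genes are too few to describe the list.

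Niche factors of marrow stroma, 14 genes of which 12 were compared, had 11 above 0 and a median of 0.67 (0.46 adjusted), against 0.28 (-0.01) for all genes. Higher by 1 were 3 members, against 14.8% of all genes, and lower by 1 were 0. Vcam1, the adhesion molecule that holds blood cells in the marrow, was listed in 39 of 44 cells with (88.6%, 75.4 to 96.2) and 8 of 14 without Aldh1a2 (57.1%, 28.9 to 82.3), with medians of 17.01 and 2.69 FPKM. The ranges overlapped, up to 553 FPKM with and 177 FPKM without. Its difference was 1.69, or 1.58 adjusted, and 0.34 in young cells. Spp1, the bone matrix protein osteopontin, was listed in 40.9% and 14.3% and differed by 1.51 (1.19 adjusted), with 1 value of 1531 FPKM among the 2 listed cells without Aldh1a2. With only these 2, Spp1 passed the filter through the cells with Aldh1a2. Ptn, pleiotrophin, differed by 1.02 (0.77 adjusted). Igf1 differed by 0.77, Csf1 by 0.57, Kitl by 0.24 and Cxcl12 by 0.23, and Pdgfa was the 1 member below 0, at -0.68. The most abundant factor, Cxcl12, had medians of 881 FPKM with and 752 FPKM without Aldh1a2. Stromal identity genes did not lean one way: of 15 compared 2 were higher and 2 lower by 1, with a median of 0.47 that was -0.03 after adjustment. Among them Gas6, a ligand of TAM receptors, differed by 1.497 (0.57 adjusted) and the transcription factor Tcf4 by -1.46 (-1.72 adjusted).

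Matrix, bone and growth factor lists had medians on both sides of that of all genes, and their counts stand against 14.8% of all genes higher and 3.40% lower by 1. Of 40 collagen and matrix genes 25 were compared, and of these 3 were higher by 1 and 0 lower, with a median of 0.27 (0.01 adjusted). Ogn, the small proteoglycan osteoglycin, led them. It was listed in 29 of 44 cells with (65.9%, 50.1 to 79.5) and 3 of 14 without Aldh1a2 (21.4%, 4.66 to 50.8), with medians of 17.6 and 0.00470 FPKM and a difference of 2.06, or 1.70 adjusted. Both ranges started at 0 and ended at 427 and 181 FPKM. With 3 listed cells without Aldh1a2, Ogn passed the filter only through the cells with it. Of 11 bone genes 1 was higher by 1, Spp1, and Phex, the endopeptidase of bone mineralisation, differed by 0.84 (61.4% and 50%). Ibsp, bone sialoprotein, differed by 0.78, with medians of 333 and 198 FPKM. Of 11 TGF-beta and BMP genes 3 were higher, led by Tgfbr3, and of 7 IGF genes 2, Pappa at 1.30 (1.00 adjusted) and Igfbp4 at 1.29 (0.36 adjusted). The IGF receptor gene Igf1r was listed in 13.6% and 42.9% and differed by -0.74. Of 7 genes compared from the Wnt list 2 were higher, led by the antagonist Sfrp4 (1.73, or 1.10 adjusted, with 55% of its FPKM in 1 cell). Lower by 1 was Tcf4, which is an E protein gene and not the Wnt effector Tcf7l2, also on the list. The 7 thus include a gene that does not belong to the Wnt pathway.

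Stress and immune lists, all of few members, are read against the same 14.8% of genes higher and 3.40% lower by 1. Of 4 heat shock chaperones 3 were higher, among them Hsp90ab1 (65.9% and 42.9%, difference 2.1, adjusted 1.87), and Hspa8 differed by -0.52. Of these 4, Hspe1 is mitochondrial and the others are cytosolic. Of 14 folding genes of the endoplasmic reticulum 3 were higher and 0 lower, with Calr, the chaperone calreticulin, at 1.94 (1.41 adjusted) and Hspa5, the chaperone BiP, at -0.64. Of 16 complement and acute-phase genes 2 were higher, with Lifr, the receptor of leukaemia inhibitory factor, at 1.55 (1.24 adjusted) and C3 at 0.67. Of 22 antioxidant genes 6 were higher and 1 lower, with Prdx4 highest at 1.48 (1.05 adjusted) and Mt2 at -1.17 (-1.56 adjusted). Of 6 NF-kB genes 2 were higher, Zfp36 at 1.69 (1.37 adjusted) and Cxcl14 at 1.19 (0.95 adjusted). Of 19 lysosome and autophagy genes 4 were higher and 0 lower. Of 12 immediate early genes 4 were higher and 1, Jun, lower (-1.08). Among lists with at least 5 compared members the interferon genes had the lowest median, -0.26 (-0.55 adjusted), with 0 of 8 higher and 2 lower by 1, Psmb9 and Ifitm2. Of Ifitm2, 56% of the FPKM lay in 1 cell.

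The 2 largest lists are read against all genes, of which 14.8% were higher and 3.40% lower by 1 as deposited, and 7.24% and 8.45% adjusted. Of 72 ribosomal protein genes 26 were higher and 3 lower by 1, with a median of 0.65, and after adjustment 12 were higher and 7 lower with a median of -0.07. Of 52 nuclear oxidative phosphorylation genes 10 were higher and 3 lower, with a median of 0.32, and after adjustment 5 were higher and 7 lower with a median of -0.30. Of 21 lists with at least 5 compared members 18 had a median above 0, and 4 changed sign after adjustment.

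**Figure D4:**
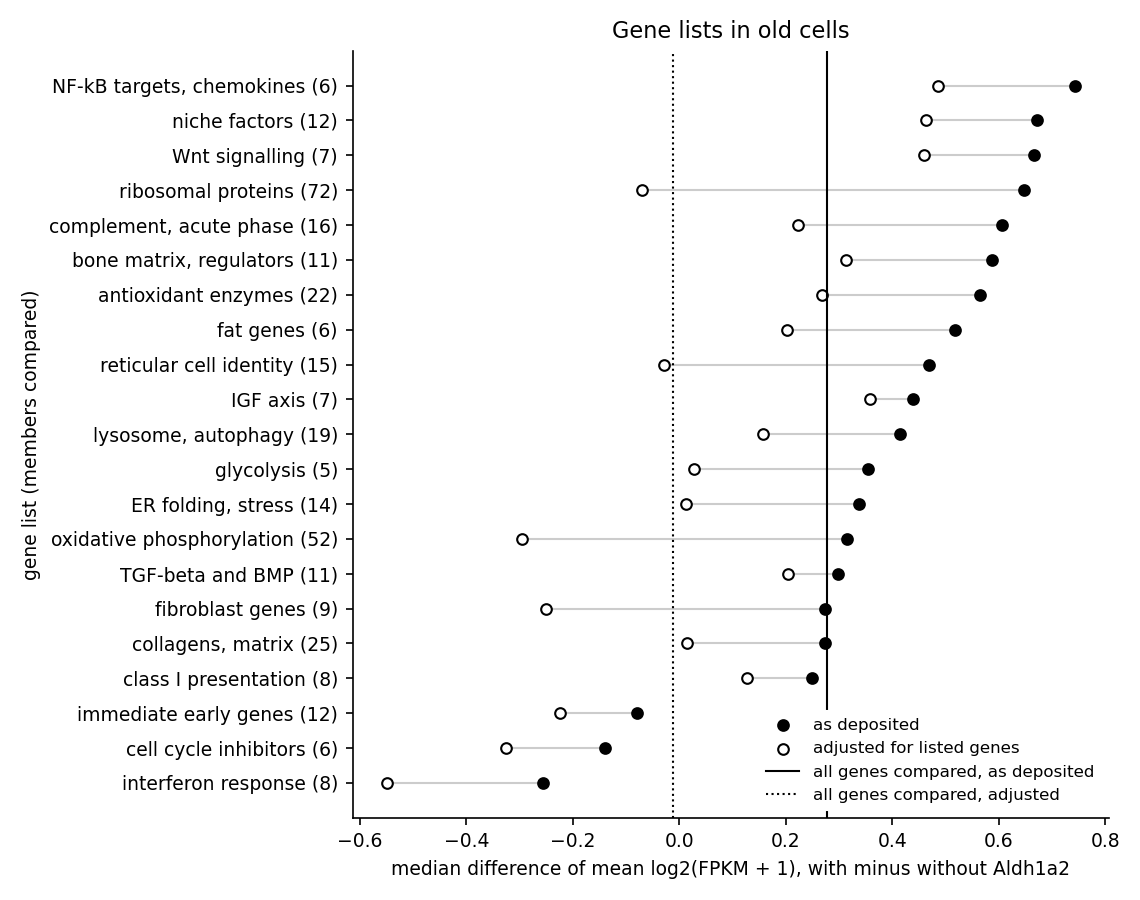
Median difference of mean log2(FPKM + 1), with minus without Aldh1a2, in old cells for each list with at least 5 compared members (number in parentheses), as deposited (filled) and adjusted for listed genes (open). The vertical lines are the medians of all 1823 genes, 0.28 as deposited and -0.01 adjusted, and the ribosomal list moves most with the adjustment, 0.65 and -0.07.

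The same split in young cells gave values the choice of genes had not used. Among 1715 genes compared there, 200 (11.7%) were higher and 48 (2.80%) lower by 1 in the 15 cells with than in the 52 cells without Aldh1a2, and after adjustment 119 (6.94%) and 113 (6.59%). Young cells with Aldh1a2 listed a median of 1314 genes and those without 1200. Xist was listed in 38 of 44 old cells with and 11 of 14 without Aldh1a2, and in 0 young cells. A Y-linked gene was listed in 0 old cells, in 5 of 15 young cells with and in 26 of 52 without Aldh1a2. Age and sex-linked RNA therefore cannot be told apart between the ages, whereas within old cells both sides carried Xist.

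The genes highest in old cells were set beside all genes in young cells, without a test. Of the 12, 11 were compared at both ages, and 7 of them were above 0 in young cells (63.6%), against 61.2% of the 1389 genes compared at both ages. With adjustment it was 3 of 11 (27.3%), against 47.9%. As deposited none was higher by 1, against 12.7% of genes, and Pomp was lower by 1.36, listed in 20.0% of young cells with and 48.1% without. Of the 7 lowest genes compared at both ages 2 were also lower by 1 in young cells, against 2.81% of genes. These were Rbm39 (-1.06; 73.3% and 80.8%) and Anxa1 (-1.21; 40% and 53.8%). Tomm5 did not reach 20% of young cells and so was not among the 7. It was listed in 5 of 15 young cells with and 6 of 52 without Aldh1a2, and its difference went the other way at 1.35. Over all genes higher by 1 in old cells, 38 of 238 (15.97%) were higher by 1 in young cells too, against the background of 12.7%. Of 50 genes lower by 1 in old cells, 2 (4.00%) were lower in young cells, against 2.81%. With both ages adjusted, 9 of 118 higher genes (7.63%) were higher in young cells too, against 7.27%, and 15 of 128 lower genes (11.7%) were lower, against 6.70%. None of these gaps was tested.

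Genes past 1 at both ages were selected after their values were seen, and 38 were higher and 2 lower. The 38 were 15.97% of the 238 genes higher in old cells, near the 12.7% of all genes compared at both ages. The 2 were 4.00% of 50 lower genes, against 2.81%. The genes below are thus examples and not a set shared by the ages beyond that background. Ogn was listed in 73.3% of young cells with and 51.9% without Aldh1a2, a difference of 1.77, or 1.18 adjusted. The young medians were 35.4 and 1.10 FPKM, in ranges that overlapped from 0 to 180 and 237 FPKM. Spp1 was listed in 93.3% and 82.7% of young cells, with medians of 338 and 74.6 FPKM and a difference of 1.71. Runx1, a transcription factor of bone and blood, differed by 1.91 in old and 1.39 in young cells, or 1.30 and 0.96 adjusted. Epas1, the hypoxia-inducible factor HIF-2 alpha, differed by 2.06 and 1.06 (1.25 and 0.66 adjusted), and Lifr by 1.55 and 1.07 (1.24 and 1.07 adjusted). The cytochrome gene Cyp1b1, whose enzyme can also oxidise retinoids, differed by 1.32 and 1.64 (0.77 and 1.36 adjusted). In old cells Runx1 had medians of 47.6 FPKM with and 5.35 FPKM without Aldh1a2, and Epas1 52.4 and 12.7 FPKM. Dcn, the proteoglycan decorin, had one of the highest young differences, 3.25 (80% and 38.5%), but in old cells it differed by -0.07 (75% and 64.3%). Gpx3, plasma glutathione peroxidase, had opposite signs, 1.26 in old and -0.96 in young cells.

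**Figure D5:**
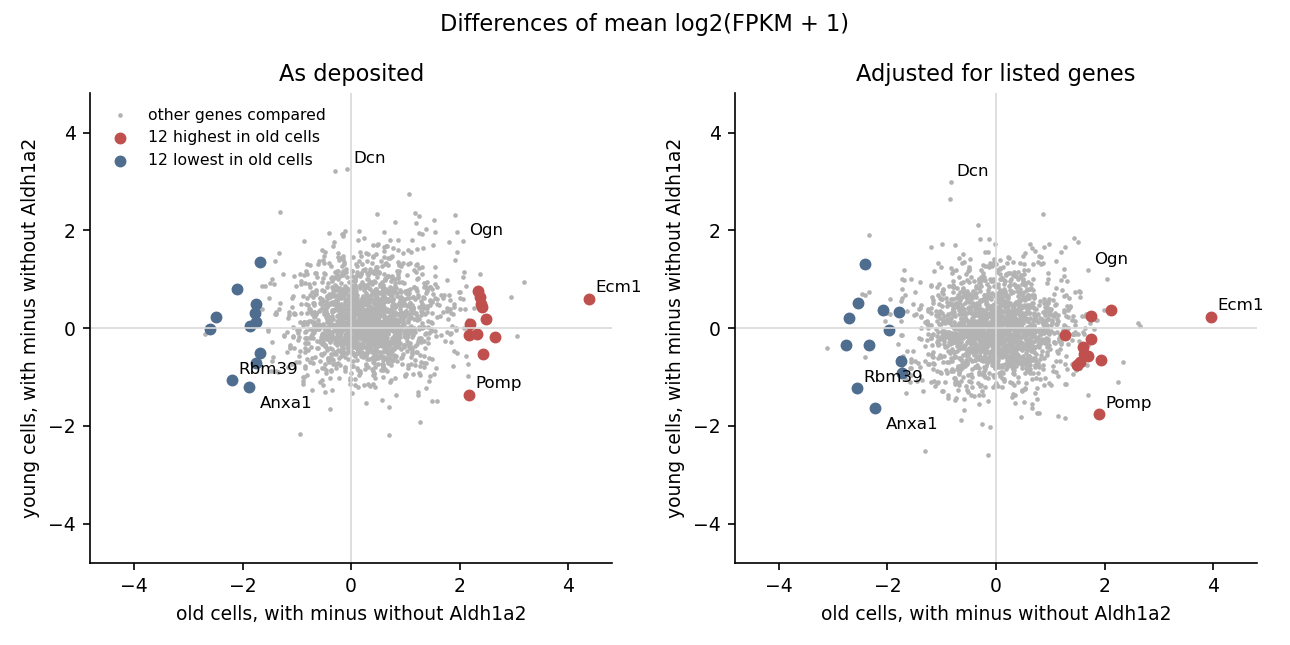
Each point is a gene compared in old cells, placed by its difference of mean log2(FPKM + 1), with minus without Aldh1a2. The horizontal axis gives old cells and the vertical axis young cells, as deposited (left) and adjusted for listed genes (right). Some of these genes were not compared in young cells, because too few young cells listed them. Ecm1 lies at 4.39 in old and 0.61 in young cells, Ogn at 2.06 and 1.77, and Dcn at -0.07 and 3.25.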

How the data were processed

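RNA was measured in 160 single cells, 78 from old and 82 from young mice, each its own entry. The FPKM were made by the authors and deposited as 1 table of genes by cells; Cufflinks 2.1.1 and the genome build mm9 are named, per the submitters' processing notes. Filters, multiple mapping and sequencing depth: not given in the sources used here. Per the labels' protocols, wells without exactly 1 cell were removed by microscopy, and no doublet caller was run.

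Of 31199 rows, 7751 without a gene name were left out, and rows sharing a name were summed. All columns were used. Kept cells listed at least 600 named genes at 1 FPKM. Genes were compared when listed in at least 20% of kept cells of an age, by share of cells (exact Clopper-Pearson 95% intervals) and by mean log2(FPKM + 1), which understates differences of low genes. A difference of 1 or of 25 percentage points was counted. Since each age is 1 sample, no test was made. The adjusted difference comes from a linear fit per gene on side and log2 of the number of listed genes.

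The members, gene lists and thresholds were chosen with earlier results of these data known. The rule for named genes skips predicted, ribosomal protein, mitochondrially encoded and small RNA genes and genes with over 50% of summed FPKM in 1 cell, asks for the same sign of the difference, of the share difference and of the adjusted difference, and takes the 12 highest and 12 lowest. From each of 26 pathway lists it takes the members of highest and lowest difference and the 2 of highest mean. All retinoid and marker genes and 6 genes that split old cells in other ways (Spp1, C3, Vcam1, Igf1, Phex and Hspa5) are included as well. Other genes named were chosen after their values were seen. The report shows some of these, and 1 of the 12 highest is not reported here. Python 3.11.15, numpy 2.4.6, pandas 2.3.3 and scipy 1.17.1 were used, and the steps were tested on simulated data. Alternatives changed the gene minimum, the Aldh1a2 cut, the pseudocount, the gene filter, the scaling and the cells used. Promoters are RefSeq's for GRCm38.p6.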

Additional observations from a re-analysis of the deposited data

How the results depend on the processing

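For the 24 genes with the highest and lowest differences, 235 values were recomputed under 10 settings: 215 kept their sign and a size of 1, 20 kept their sign with a size under 1, and 0 changed sign. Part of this was fixed in advance. Dropping the gene filter cannot change a gene's own difference, and the genes were chosen to keep their sign when adjusted for listed genes. Of these 20, 7 came from taking all old cells, among them Rbm39 (-0.27), Anxa1 (-0.24) and Lpl (-0.30). With Aldh1a2 cut at 10 FPKM, Dbi was at 0.27 and Lpl at -0.46.

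The counts of genes depended on the settings too, as did the values of the lowest genes. The counts of old genes higher and lower by 1, 269 and 62, were 419 and 6 with all old cells (48 with and 30 without Aldh1a2), and 605 and 130 with a pseudocount of 0.1. They were 132 and 154 adjusted for listed genes. The higher count was 171 with Aldh1a2 cut at 10 FPKM. The lower count was 128 with a minimum of 1000 genes, 113 with Aldh1a2 above 0, 120 with no gene filter, 33 with cells rescaled to equal sums and 223 averaged within cells below and above the median gene number. By shares, 189 and 25 genes were 388 and 0 with all old cells, 342 and 79 with a minimum of 1000 genes, 94 and 16 with the cut at 10 FPKM, and 71 and 78 adjusted. The higher count was 368 with Aldh1a2 above 0 and 86 with genes listed at 10 FPKM. The lower count was 136 averaged below and above the median gene number and 42 without cells whose summed FPKM was over 3 times the median (1 with and 3 without Aldh1a2). In young cells 200 and 48 genes by 1 were 447 and 150 with a pseudocount of 0.1 and 119 and 113 adjusted, and by shares 134 and 17 were 59 and 52 adjusted. A minimum of 1000 genes gave lower counts of 108 by 1 and 71 by shares. In the old averages below and above the median gene number, only 2 cells without Aldh1a2 stood at or above it. The cause of these shifts was not tested.

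No paired analysis was possible because cell numbers are names and each age is 1 sample. With 14 cells without Aldh1a2, the exact upper bound of a share of 0 is 23.2%, and the number of mice behind the cells is unknown.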
